A study of Mus musculus with 14 samples.

Results

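The NADPH oxidase subunits described here were 9 genes taken by name: the catalytic subunits Cybb, Nox1, Nox4, Duox1 and Duox2, the membrane partner Cyba, the cytosolic subunits Ncf1 and Ncf4, and the GTPase Rac2. They were matched through their Ensembl identifiers to 9 of the 21853 genes of an RNA sequencing data set of mouse ovaries and uteruses. They were not picked by a cutoff on measured values, but earlier results of these data were known when they were chosen.

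RNA was collected from 7 female C57BL/6J mice aged 28 weeks, with a library from the ovary and a library from the uterus under each mouse name, giving 14 libraries. The 3 mice of the old control (OC) group had normal saline in the tail vein, and the 4 mice of the old treatment (OT) group had conditioned medium of human amniotic membrane-derived mesenchymal stem cells (AMSC-CM), mixed from several donors, at 1 μL per g body weight in 6 injections at intervals of 4 days. Mice of both groups had also received 10 IU of pregnant mare serum gonadotropin and 10 IU of human chorionic gonadotropin 48 h apart, before the injections. Unsorted tissue was sequenced, in which fewer cells of a type and less RNA per cell cannot be told apart.

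NADPH oxidases move electrons from NADPH across a membrane to oxygen and so make superoxide or hydrogen peroxide on purpose, rather than as a by-product of respiration. In phagocytes, the catalytic protein encoded by Cybb sits in the membrane with its partner encoded by Cyba, and becomes active when cytosolic proteins, among them those of Ncf1 and Ncf4, and the GTPase Rac2 join it. Nox1 is the catalytic subunit best known from colon epithelium, Nox4 makes hydrogen peroxide constitutively in kidney, vessels and fibroblasts, and the dual oxidases Duox1 and Duox2 work at epithelial surfaces and in the thyroid, each with a maturation factor (Duoxa1 and Duoxa2). In the ovary and uterus, oxidants of this family have been studied in ovulation, in tissue remodelling and in defence against microbes.

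On the mm10 genome, Cybb (ENSMUSG00000015340.10) lies at chrX:9435252-9487771 and Nox1 (ENSMUSG00000031257.14) at chrX:134086421-134221956, both on the minus strand. Nox4 (ENSMUSG00000030562.17) lies at chr7:87246096-87398710 on the plus strand. Cyba (ENSMUSG00000006519.11) lies at chr8:122424776-122432930 and Ncf1 (ENSMUSG00000015950.13) at chr5:134220053-134229625, both on the minus strand. Ncf4 (ENSMUSG00000071715.12) on the plus strand at chr15:78244801-78262580 and Rac2 (ENSMUSG00000033220.7) on the minus strand at chr15:78559167-78572783 share a chromosome. Duox1 (ENSMUSG00000033268.8), on the plus strand at chr2:122315672-122347972, and Duox2 (ENSMUSG00000068452.8), on the minus strand at chr2:122279247-122298449, are neighbours with their maturation factors between them. The annotated starts of Duox1 and Duoxa1 were 1942 bases apart and pointed away from each other, and those of Duox2 and Duoxa2 were 451 bases apart in the same arrangement. Duoxa1 and Duoxa2 overlap on opposite strands, which the stranded counting keeps apart. All 9 genes are annotated as protein coding.

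The promoters of 5 genes are shown because the results turn on them: the membrane pair Cybb and Cyba, the cytosolic subunit Ncf1, and the head-to-head pair of Duox1 and Duoxa1. Each runs from 250 bases before to 50 bases after the RefSeq start on GRCm38.p6 and is printed in the direction of its gene. The windows are chrX:9469275-9469574 on the minus strand for Cybb, chr8:122432891-122433190 on the minus strand for Cyba, chr5:134229576-134229875 on the minus strand for Ncf1, chr2:122315422-122315721 on the plus strand for Duox1 and chr2:122313681-122313980 on the minus strand for Duoxa1. Capitals mark GAGGAA, or TTCCTC where it lies on the other strand, the core bound by PU.1, a transcription factor of myeloid cells.
Cybb: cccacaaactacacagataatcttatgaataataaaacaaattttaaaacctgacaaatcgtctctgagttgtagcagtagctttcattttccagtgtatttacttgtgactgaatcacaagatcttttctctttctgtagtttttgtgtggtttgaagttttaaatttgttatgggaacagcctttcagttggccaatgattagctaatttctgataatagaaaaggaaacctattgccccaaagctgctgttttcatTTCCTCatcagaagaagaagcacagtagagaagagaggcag
Cyba: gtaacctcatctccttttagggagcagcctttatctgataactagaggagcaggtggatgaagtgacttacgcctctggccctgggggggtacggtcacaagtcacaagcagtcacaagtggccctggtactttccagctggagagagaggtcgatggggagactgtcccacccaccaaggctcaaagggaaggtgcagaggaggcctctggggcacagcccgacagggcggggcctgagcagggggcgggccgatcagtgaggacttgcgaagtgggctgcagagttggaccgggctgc
Ncf1: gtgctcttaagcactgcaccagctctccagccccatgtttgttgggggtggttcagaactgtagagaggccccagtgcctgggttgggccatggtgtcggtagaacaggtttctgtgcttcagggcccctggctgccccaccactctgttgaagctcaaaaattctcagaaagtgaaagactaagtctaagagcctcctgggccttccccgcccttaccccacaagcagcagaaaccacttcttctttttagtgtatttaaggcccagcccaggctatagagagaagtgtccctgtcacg
Duox1: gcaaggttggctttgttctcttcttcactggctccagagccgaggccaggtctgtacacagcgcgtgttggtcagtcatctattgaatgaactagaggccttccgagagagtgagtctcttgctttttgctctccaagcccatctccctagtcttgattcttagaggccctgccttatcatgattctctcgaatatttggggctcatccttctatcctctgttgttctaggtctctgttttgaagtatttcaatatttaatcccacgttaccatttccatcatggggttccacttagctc
Duoxa1: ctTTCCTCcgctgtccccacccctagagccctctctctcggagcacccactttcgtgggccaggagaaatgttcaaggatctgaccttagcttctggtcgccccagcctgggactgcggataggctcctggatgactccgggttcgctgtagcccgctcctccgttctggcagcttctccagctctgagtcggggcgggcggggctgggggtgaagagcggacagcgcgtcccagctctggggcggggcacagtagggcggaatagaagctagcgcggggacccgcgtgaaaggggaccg
Cybb held 1 match, on the other strand and 10 bases past the start, and Duoxa1 held 1 match near the far end of its window. Cyba, Ncf1 and Duox1 held none in these windows. These letters were found in 9289 of 32851 promoters of the same length (28.3%), so a match is common and is given as a description only. The GC content was 35.3% for Cybb, 60.7% for Cyba, 54% for Ncf1, 46.7% for Duox1 and 65.7% for Duoxa1, against a median of 52.7% over all promoters. The Cybb window lies inside the annotated span of the gene, since RefSeq starts it further in. RefSeq promoters were found for 7 of the 9 subunits, without Ncf4 and Rac2.

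Levels are in FPKM, a fragment count divided by gene length and by the size of the library, so that they allow levels of different genes to be compared. The summed FPKM per library ranged from 374816 to 471907, except in the OT1 uterus at 577494. Sequencing depth could not be read from these values. Genes of ovarian cells summed to 3458 to 4489 FPKM in the ovaries and to 7.40 to 22.7 FPKM in the uteruses, as the tissue labels say. The 8 genes of the uterus summed to 462 to 550 FPKM in OC uteruses, 288 to 399 FPKM in OT uteruses and 81.7 to 162 FPKM in the ovaries. Hoxa10, Hoxa11 and Hoxd10 were lower in every OT uterus than in every OC uterus, an order seen in 5.48% of genes. Wnt4, also among the 8, was instead higher in the ovaries, at 44.3 to 76.5 FPKM against 0.86 to 3.59 FPKM in the uteruses. Adipocyte genes differed between the groups: 10 of 10 were higher in every OT uterus than in every OC uterus, with sums of 1380 to 12308 FPKM against 111 to 316 FPKM. Over all genes of the uterus 6.46% showed that order. In the ovaries 10 of 10 had a higher OT mean, and 3 did not overlap between the groups, against 2.78% of genes higher in every OT ovary. The sums there were 260 to 1912 FPKM in OT and 207 to 328 FPKM in OC.

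Among the subunits, Cyba was by far the most abundant in both organs. Its mean was 40.3 ± 5.56 FPKM in the ovaries and 59.3 ± 10.3 FPKM in the uteruses (SD, n = 7 each), at the 87.8th and 91.6th percentiles of the genes past the filter on low values (a mean of 0.5 FPKM in the tissue). In the ovaries the order below it was Cybb (5.36 ± 1.67 FPKM), Rac2 (4.83 ± 1.91 FPKM), Ncf1 (3.80 ± 1.10 FPKM), Ncf4 (1.64 ± 0.55 FPKM) and Nox4 (1.30 ± 0.10 FPKM), again as SD with n = 7. The ranges of Cybb, Rac2 and Ncf1 overlapped, as did those of Ncf4 and Nox4, while every ovary had more Ncf1 than the highest Ncf4 value. In the uteruses Rac2 came second (12.9 ± 3.70 FPKM), ahead of Cybb (8.11 ± 4.83 FPKM), Ncf1 (7.30 ± 3.32 FPKM), Ncf4 (2.74 ± 1.24 FPKM), Nox4 (1.54 ± 0.21 FPKM) and Duox2 (0.54 ± 0.13 FPKM). Each neighbouring pair from Rac2 down to Nox4 overlapped in range, and Duox2 lay wholly below Nox4.

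The subunits left out by the filter were few-fragment genes. Nox1 was listed at 0 in 3 of 7 ovaries and 5 of 7 uteruses, and its highest level was 1.01 FPKM, in the OC1 ovary. Duox1 was listed at 0 in 5 of 7 ovaries, with no value above 0.03 FPKM there. Duox2 lay at 0.10 to 0.25 FPKM in the ovaries, under the filter, and passed it only in the uteruses. The filter left 6 of the 9 subunits for tests in the ovary and 7 in the uterus.

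**Figure D1:**
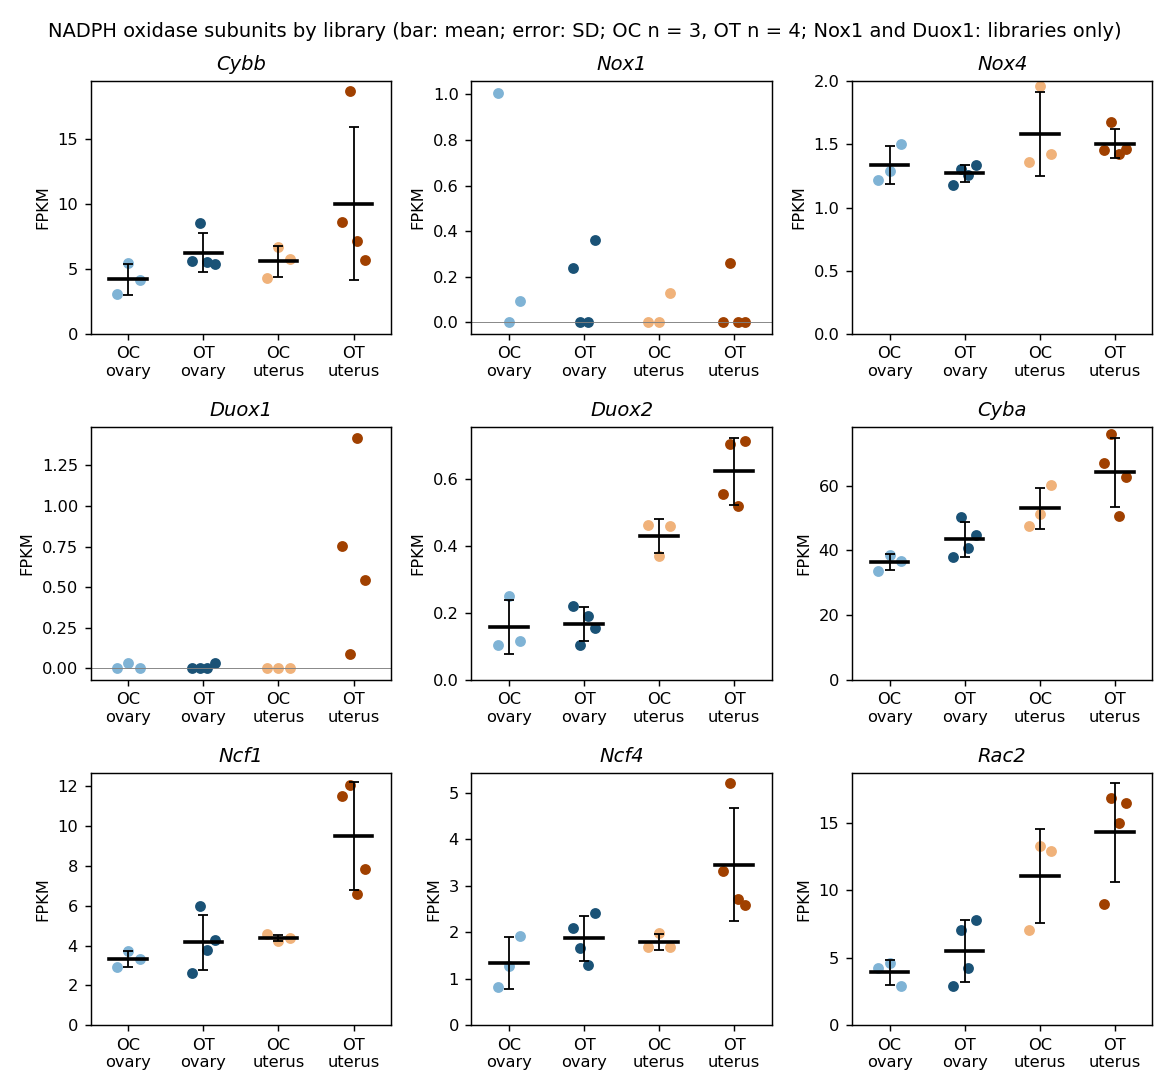
FPKM of the 9 subunits (vertical axes, 1 scale per gene) in each library of the OC and OT groups in ovary and uterus; points are libraries, and bars are group means with SD except for Nox1 and Duox1, which were listed at 0 in many libraries. Ncf1, Ncf4, Duox1 and Duox2 lie higher in the 4 OT uteruses than in the 3 OC uteruses, an order seen in 6.46% of the genes tested there. Duox1 was under the filter and not tested. Nox4 stays between 1.18 and 1.96 FPKM in all 14 libraries.

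The ratios between subunit messages overlapped between OC and OT in both organs. Cyba exceeded Cybb 5.91- to 11.0-fold in the ovaries and 4.08- to 11.1-fold in the uteruses, the lowest ratio being in the OT2 uterus. The ratio of Ncf1 to Ncf4 was 1.73 to 3.57 in OC ovaries, 1.26 to 3.59 in OT ovaries, 2.14 to 2.70 in OC uteruses and 2.31 to 3.46 in OT uteruses. The ubiquitous GTPase Rac1 was more abundant than the haematopoietic Rac2 in all 14 libraries, by 11.7- to 34.1-fold in the ovaries and 6.99- to 17.3-fold in the uteruses.

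To learn where each subunit was expressed, the organs were compared over all 14 libraries with limma, each tissue being the mean of its OC and OT group means on log2(FPKM + 0.1). All 7 subunits tested had a difference above 0, with the higher level in the uterus. Of these, 2 met both cutoffs, a log2 difference of 1 or more either way and a Benjamini-Hochberg adjusted p under 0.05, both higher in the uterus: Rac2, which passed the filter in each organ, and Duox2, which passed it only in the uterus, so that it had to differ and is given as a description. Over the 14913 genes tested, 20.6% met the cutoffs and 10.2% did so with the higher level in the uterus. The median difference was 0.65 on the log2 scale over the 7 subunits and -0.01 over all genes. At the adjusted p alone 5 of 7 subunits passed, against 53.2% of all genes. These counts and the median include Duox2. With a filter of 1 FPKM, which left it out, all 6 subunits lay above 0, with a median of 0.60. Of these, 4 passed the adjusted p.

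Rac2 had 2.90 to 7.83 FPKM in the ovaries, with a median of 4.27, and 7.06 to 16.8 FPKM in the uteruses, with a median of 13.3. The lowest uteruses, OC1 and OT1, lay near the highest ovaries, OT2 and OT4, and the ranges overlapped slightly. Its log2 difference was 1.43 (SE 0.25, limma, adjusted p = 0.000277). Duox2 ranged from 0.10 to 0.25 FPKM in the ovaries and 0.37 to 0.71 FPKM in the uteruses, and every uterus exceeded every ovary. Its log2 difference was 1.27 with a pseudocount of 0.1 FPKM and 0.39 with a pseudocount of 1 FPKM, under the fold cutoff.

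Smaller differences were found for the membrane partner and the cytosolic subunits. Cyba was higher in the uterus by 0.55 (SE 0.10, limma, adjusted p = 0.000418), Ncf1 by 0.79 (SE 0.18, adjusted p = 0.00254) and Ncf4 by 0.65 (SE 0.22, adjusted p = 0.0229) on the log2 scale. None of the 3 met the fold cutoff, and Ncf4 missed the adjusted p cutoff without mouse OC1, OC2 or OT2 (limma, adjusted p = 0.0895, 0.0816 and 0.0687). Cybb differed by 0.48 (SE 0.24, limma, adjusted p = 0.111), with an interval from -0.04 to 1.00. With the mouse as a block, which takes up differences between animals, the same 0.48 had an adjusted p of 0.0148 in limma. Nox4 differed by 0.22 (SE 0.13, limma, adjusted p = 0.178), with an interval from -0.07 to 0.51.

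Genes of leukocytes moved with this contrast. The sum of 5 pan-leukocyte genes was 56.6 to 143 FPKM in the ovaries and 113 to 276 FPKM in the uteruses, and that of 14 macrophage and monocyte genes 335 to 631 and 430 to 1489 FPKM. Rac2 per 100 FPKM of macrophage and monocyte genes was 0.60 to 1.27 in the ovaries and 1.03 to 3.23 in the uteruses, so the ranges overlapped. The part of these cells in the differences between organs was not tested.

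Of the other 14 oxidase genes, organizers, activators, maturation factors and regulators, 12 were tested in this contrast and 3 were called, all higher in the uterus. Over all genes 20.6% were called and 10.2% were called higher in the uterus. Noxa1, the activator that pairs with Nox1, had 0 to 0.34 FPKM in the ovaries and 0.09 to 5.44 FPKM in the uteruses, a log2 difference of 2.99. The OT1 uterus lay within the range of the ovaries and the OC1 uterus was the highest. Sh3pxd2b, an organizer homologue of podosomes, was higher by 1.13 (SE 0.10, limma, adjusted p = 5.33e-07), with 9.39 to 13.8 FPKM in the ovaries and 20.2 to 28.1 FPKM in the uteruses. Duoxa1 was higher by 1.83, and by 0.48 with a pseudocount of 1 FPKM. Noxa1 and Duoxa1 passed the filter only in the uterus, so these values are descriptions. By adjusted p alone 6 more were higher in the uterus, with log2 differences from 0.40 for Rac1 to 0.76 for Sh3pxd2a (limma, adjusted p from 0.000136 to 0.00949), the others being Rap1a, Vav1, Prex1 and Hvcn1. Of all genes, 53.2% passed the adjusted p cutoff in either direction. Noxo1, the organizer that pairs with Nox1, was lower in the uterus by the same cutoff, at -0.77 (SE 0.25, limma, adjusted p = 0.0217), and so was Poldip2, a Nox4 interactor, at -0.42 (SE 0.14, adjusted p = 0.0192).

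**Figure D2:**
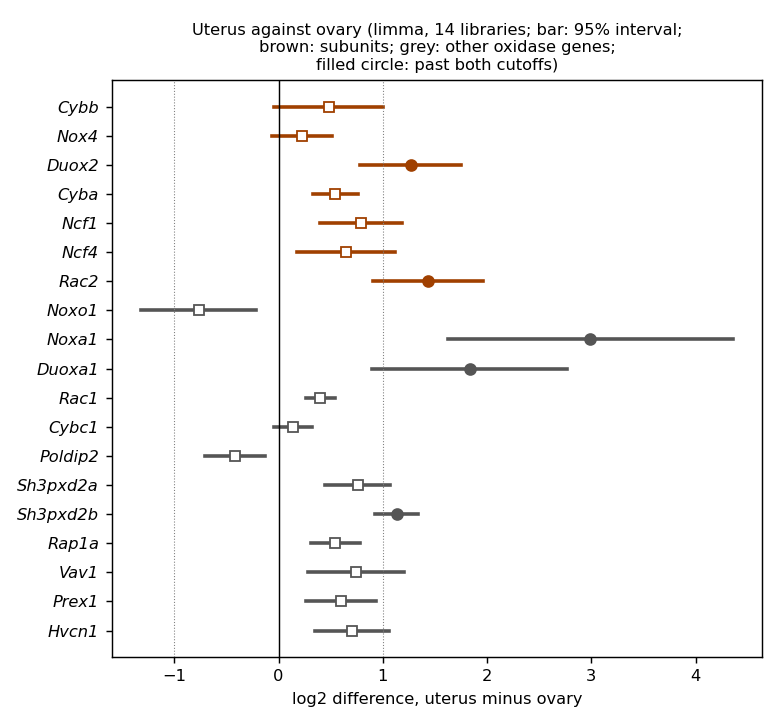
Log2 difference between uterus and ovary (horizontal axis) with its 95% interval for the subunits (brown) and other oxidase genes (grey), limma over 14 libraries; filled circles met both cutoffs and dotted lines mark a log2 of 1 either way. Rac2 at 1.43 and Duox2 at 1.27 are the only filled subunits, and Noxo1 and Poldip2 lie left of 0.

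The study asked whether AMSC-CM changed oxidative stress in the organs of aged mice, and OT was therefore compared with OC within each organ. A gene was called where the groups differed 2-fold or more in either direction (1 on the log2 scale) and the unadjusted limma p was 0.05 or less, and the Benjamini-Hochberg adjusted p is given beside it. For the genes described in full, an exact two-sided permutation test over the 35 splits of 3 and 4 libraries is added, whose smallest possible p is 0.0571, so it cannot pass 0.05. In the ovary none of the 6 subunits tested was called, against 0.451% of 14415 genes, and 5 of 6 had a fold change above 0. The median log2 fold change was 0.34 over the 6 subunits and -0.01 over all genes. No gene of the ovary reached an adjusted p under 0.05 in limma, and 650 had an unadjusted p under 0.05.

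Cybb had 3.04, 5.42 and 4.14 FPKM in the OC ovaries and 5.58, 8.49, 5.51 and 5.37 FPKM in the OT ovaries. The OT2 ovary stood above the rest, and the lowest OT ovary lay just under the highest OC ovary. The log2 fold change was 0.57 (SE 0.23, limma p = 0.0359, adjusted p = 0.997, exact permutation p = 0.114), under the fold cutoff.

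Cyba had 33.6, 38.5 and 36.8 FPKM in the OC ovaries and 37.8, 50.2, 40.6 and 44.8 FPKM in the OT ovaries. Only the OT1 ovary fell within the OC range. The log2 fold change was 0.25 (SE 0.10, limma p = 0.0382, adjusted p = 0.997, exact permutation p = 0.114). Of the 6 subunits these 2 had an unadjusted p under 0.05, against 4.51% of all genes. Neither did without mouse OC1, where the log2 fold changes were 0.36 for Cybb and 0.20 for Cyba. The same held without mouse OC3 (0.58 and 0.26), without mouse OT2 (0.41 and 0.18) and in the fit of all 14 libraries. Cyba alone also had an unadjusted p above 0.05 without mouse OT4 (0.23).

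The cytosolic subunits and Rac2 spread widely in the OT ovaries. Ncf1 had 2.92, 3.71 and 3.32 FPKM in OC ovaries against 2.63, 5.96, 3.77 and 4.27 FPKM in OT ovaries. Rac2 had 4.26, 4.59 and 2.90 FPKM in OC ovaries against 2.92, 7.02, 4.27 and 7.83 FPKM in OT ovaries. Both genes were lowest in the OT1 ovary among OT and overlapped between the groups. Ncf4 had 0.82, 1.28 and 1.92 FPKM in OC ovaries and 2.08, 1.66, 1.31 and 2.42 FPKM in OT ovaries. The log2 fold changes were 0.27 for Ncf1 (SE 0.25), 0.41 for Rac2 (SE 0.34) and 0.49 for Ncf4 (SE 0.32), with a limma adjusted p of 0.997 for each. Nox4 had 1.22 to 1.50 FPKM in OC and 1.18 to 1.34 FPKM in OT ovaries, a log2 fold change of -0.06 with an interval from -0.53 to 0.40.

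Of the 10 other oxidase genes tested in the ovary none was called. Vav1, an exchange factor for Rac in haematopoietic cells, had 1.57, 1.88 and 1.94 FPKM in OC and 2.28, 3.35, 2.25 and 4.20 FPKM in OT ovaries. Every OT ovary exceeded every OC ovary for Vav1, and likewise for the organizer homologue Sh3pxd2a and the Rac exchange factor Prex1, an order seen in 2.78% of all genes tested. The log2 fold change of Vav1 was 0.68 (SE 0.25, limma p = 0.0243, adjusted p = 0.997, exact permutation p = 0.0571). The proton channel Hvcn1, which balances the charge that the phagocyte enzyme moves, had a log2 fold change of 0.39 (SE 0.18, limma, adjusted p = 0.997).

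Macrophage genes stood beside these values. The 14 macrophage and monocyte genes summed to 335 to 446 FPKM in OC ovaries and 433 to 631 FPKM in OT ovaries, and 13 of 14 had a higher OT mean. Cybb per 100 FPKM of these genes was 1.06 ± 0.15 in OC (n = 3) and 1.15 ± 0.22 in OT (n = 4), as SD. Their part in the values of the ovary was not tested.

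In the uterus 6 of 7 subunits tested had a higher mean in OT, with a median log2 fold change of 0.44 against 0.01 over all genes. Ncf1 alone among the 7 was called, where 2.9% of 14151 genes were called and 2.23% were called higher. Ncf1, Ncf4 and Duox2 were higher in every OT uterus than in every OC uterus, which 6.46% of the genes tested showed. The counts and the median include Duox2, which passed the filter only through the OT uteruses (group means of 0.43 and 0.62 FPKM). The median of 0.44 is the value of Duox2 itself. With a filter of 1 FPKM, which left it out, 5 of 6 subunits were above 0, with a median of 0.54. No gene of the uterus reached an adjusted p under 0.05 in limma on the 7 uteruses, while 1160 (8.2%) had an unadjusted p under 0.05, Ncf1 and Ncf4 among them.

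Ncf1, the organizer of the phagocyte enzyme, had 4.56, 4.24 and 4.39 FPKM in the OC uteruses and 11.5, 12.0, 6.57 and 7.81 FPKM in the OT uteruses. The OC libraries lay within a narrow band and all 4 OT libraries lay above it, OT1 and OT2 highest. The log2 fold change was 1.05 (SE 0.24, limma p = 0.0021, adjusted p = 0.396, exact permutation p = 0.0571), just past the fold cutoff. It fell under that cutoff without the OT1 uterus (0.94), without the OT2 uterus (0.92) and with a pseudocount of 1 FPKM (0.92), each at an unadjusted limma p still under 0.05.

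Ncf4, which binds phosphoinositides of the phagosome, had 1.69, 1.98 and 1.69 FPKM in the OC uteruses and 3.32, 5.21, 2.71 and 2.58 FPKM in the OT uteruses. The groups did not overlap, and OT2 was again the highest. The log2 fold change was 0.86 (SE 0.28, limma p = 0.015, adjusted p = 0.55, exact permutation p = 0.0571), under the fold cutoff.

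Cybb had 4.29, 6.68 and 5.75 FPKM in the OC uteruses and 8.59, 18.6, 7.10 and 5.71 FPKM in the OT uteruses. The OT4 uterus lay within the OC range and OT2 far above every other library. The log2 fold change was 0.70 (SE 0.38, limma p = 0.105, adjusted p = 0.625, exact permutation p = 0.171), and 0.35 without the OT2 uterus.

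Cyba had 47.5, 51.3 and 60.1 FPKM in OC uteruses and 67.1, 76.0, 50.5 and 62.6 FPKM in OT uteruses. Rac2 had 7.06, 13.3 and 12.9 FPKM in OC uteruses and 8.95, 16.8, 14.9 and 16.4 FPKM in OT uteruses. Both overlapped between the groups, through the OT3 uterus for Cyba and the OT1 uterus for Rac2. The log2 fold changes were 0.27 for Cyba (SE 0.17, limma, adjusted p = 0.627) and 0.38 for Rac2 (SE 0.30, adjusted p = 0.675). Nox4 had 1.36 to 1.96 FPKM in OC and 1.43 to 1.67 FPKM in OT uteruses, a log2 fold change of -0.05 with an interval from -0.63 to 0.53.

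Duox2 passed the filter only through the OT uteruses, and had 0.46, 0.37 and 0.46 FPKM in the OC uteruses and 0.56, 0.71, 0.52 and 0.71 FPKM in the OT uteruses. The groups did not overlap, but the log2 fold change of 0.44 is given as a description.

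Duox1 was listed at 0 in all 3 OC uteruses and had 0.76, 0.09, 1.42 and 0.55 FPKM in the OT uteruses. Its mean over the 7 uteruses was 0.40 FPKM, under the filter, and no fold is given against a group listed at 0. Duoxa1, which carries the Duox1 protein to the cell surface and starts beside it in the promoters shown, had 0.12, 0.22 and 0 FPKM in the OC uteruses and 1.54, 0.30, 1.48 and 0.26 FPKM in the OT uteruses. Every OT uterus exceeded every OC uterus for both genes, an order seen in 6.46% of the genes tested in the uterus. OT1 and OT3 were the highest 2 for each. Duoxa1 passed the filter only through the OT uteruses (group means of 0.11 and 0.90 FPKM) and was under it without the OT1 or OT3 uterus. It met both cutoffs at a log2 fold change of 2.05, the only other oxidase gene of 12 tested to do so, but having entered that way it had to differ, and the value is a description. The cutoffs were not met without the OC1 uterus (2.14) or the OC3 uterus (1.58), or with a pseudocount of 1 FPKM (0.70). Duoxa2 had 0 to 0.44 FPKM in the uteruses and was not tested.

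Among the remaining partners, Hvcn1 had a log2 fold change of 0.56 in the uterus (SE 0.26, limma, adjusted p = 0.60). Cybc1, a chaperone of the membrane pair, and Sh3pxd2b were lower in every OT uterus than in every OC uterus, an order seen in 5.48% of all genes. Their log2 fold changes were -0.16 (SE 0.12, limma, adjusted p = 0.665) and -0.14 (SE 0.14, adjusted p = 0.713). Noxo1 had a log2 fold change of -0.65 (SE 0.46, limma, adjusted p = 0.646).

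**Figure D3:**
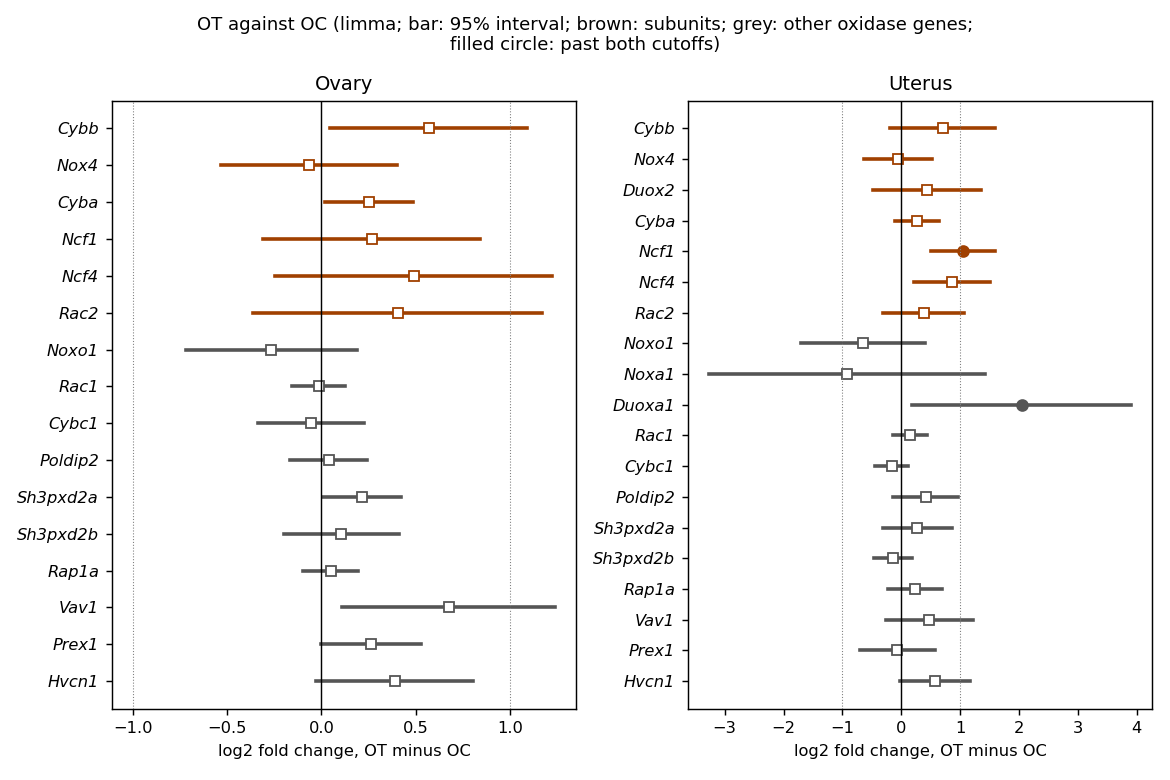
Log2 fold change of OT over OC (horizontal axes, scaled separately) with its 95% interval in ovary and uterus, limma on 7 libraries each; subunits are brown, other oxidase genes grey, and filled circles met both cutoffs. Ncf1 at 1.05 and Duoxa1 at 2.05 in the uterus are the filled points, and no gene is filled in the ovary.

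Marker genes of other cell types were set beside these values in the uterus, and not all lists were higher in OT. The 14 macrophage and monocyte genes summed to 430 to 491 FPKM in OC and 509 to 1489 FPKM in OT uteruses, highest in OT2 and OT1, the same libraries in which Ncf1, Ncf4 and Cybb were highest. Of these 14 genes, 13 had a higher OT mean, and 3 did not overlap between the groups. Ncf1 per 100 FPKM of them was 0.86 to 1.06 in OC and 0.81 to 1.54 in OT uteruses, and Cybb 1.00 to 1.36 and 0.99 to 1.33, so both overlapped. Per 100 FPKM of 5 pan-leukocyte genes, Ncf1 was 2.41 to 4.03 in OC and 4.36 to 6.12 in OT uteruses and did not overlap. The sums of these 5 genes did overlap, at 113 to 176 FPKM in OC and 139 to 276 FPKM in OT uteruses. A higher OT mean was found for 4 of the 5, and each of the 5 overlapped between the groups. The 12 neutrophil genes summed to 79.3 to 196 FPKM in OC and 69.5 to 329 FPKM in OT uteruses, with Ngp and Camp listed at 0 in all 7 uteruses. Most of these sums came from Ltf, which is also in the list of glandular and luminal epithelium. It had 69.5 to 190 FPKM in OC and 24.2 to 318 FPKM in OT uteruses. Retnlg had 4.65 to 5.73 FPKM in OC and 5.91 to 39.9 FPKM in OT uteruses, and no other gene exceeded 2.35 FPKM. The 7 B and plasma cell genes summed to 7.64 to 11.0 FPKM in OC and 16.7 to 118.6 FPKM in OT uteruses, again highest in OT2 and OT1, and 6 of 7 did not overlap between the groups. The 7 T and NK cell genes summed to 18.9 to 43.9 FPKM in OC and 12.6 to 47.6 FPKM in OT uteruses. Only 2 of these 7 had a higher OT mean. The part of these cells in the values of Ncf1, Ncf4 and Cybb was not tested.

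Beside Duox1 and Duoxa1, genes of stratified epithelium, such as the keratins Krt5 and Krt13, were higher in the OT uteruses. Their 8 genes summed to 4.61, 13.8 and 2.89 FPKM in the OC uteruses and 229.5, 47.97, 915 and 427 FPKM in the OT uteruses, and 7 of the 8 did not overlap between the groups. The OT3 uterus was highest and the OT2 uterus lowest for both Duox1 and this sum. Between them the order differed, with Duox1 higher in OT1 (0.76 FPKM) than in OT4 (0.55 FPKM) and the sum higher in OT4. Duoxa1 was highest in OT1 and lowest in OT4. Urothelial genes such as Upk1a summed to 19.0 to 23.4 FPKM in OC and 13.0 to 217 FPKM in OT uteruses, highest in OT1, and overlapped. The labels do not say whether neighbouring tissue was taken with the uteruses. The part of such epithelium, and of the lower uterine genes, in the values of Duox1 and Duoxa1 was not tested.

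**Figure D4:**
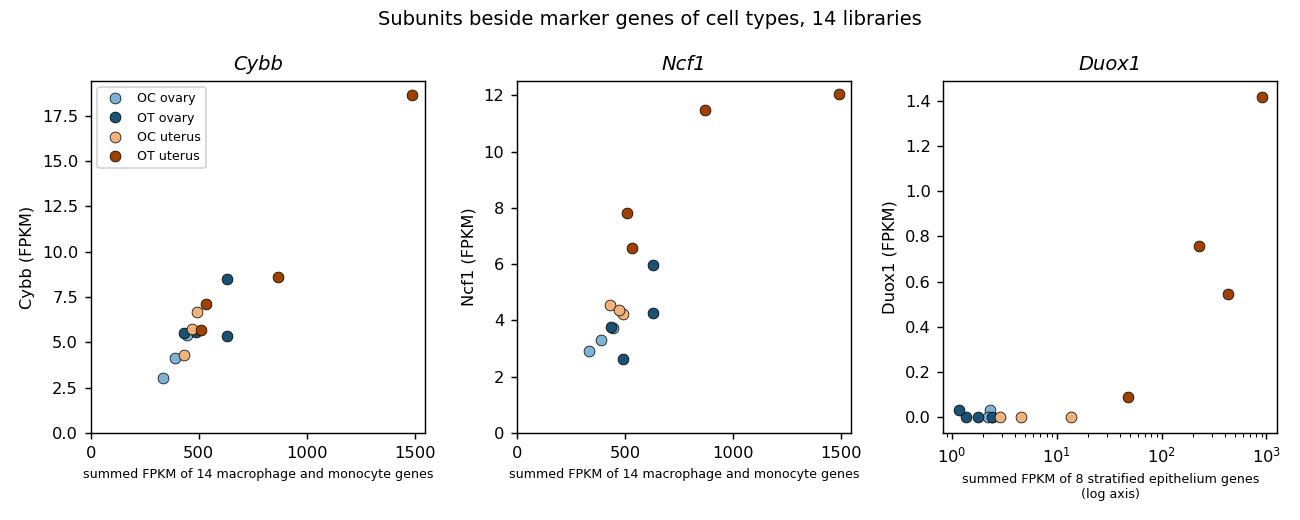
Levels of Cybb, Ncf1 and Duox1 (vertical axes, FPKM) against the summed FPKM of 14 macrophage and monocyte genes or, for Duox1, of 8 genes of stratified epithelium (horizontal axis, log scale), 1 point per library. The OT2 uterus has the highest Cybb at 18.6 FPKM and the highest macrophage sum at 1489 FPKM, and Duox1 is above 0.03 FPKM only in the 4 OT uteruses.

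Whether the OT minus OC fold changes differed between the organs was tested in a limma fit of all 14 libraries. None of the 7 subunits was called in this contrast, against 1.98% of 14913 genes, and 1.37% were called with the larger fold change in the uterus. Ncf1 came nearest, with a fold change larger in the uterus by 0.78 on the log2 scale (SE 0.36, limma, adjusted p = 0.846), with an interval from -0.01 to 1.57. Ncf4 differed by 0.37 (SE 0.43, limma, adjusted p = 0.881), Cybb by 0.13 (SE 0.48, adjusted p = 0.959) and Cyba by 0.02 (SE 0.20, adjusted p = 0.99), and the interval for Cybb ran from -0.91 to 1.18. For Duoxa1 the difference was 2.28, again a description, since the gene passed the filter only through the OT uteruses, and it no longer met the cutoffs without mouse OC3 (1.94) or with a pseudocount of 1 FPKM (0.73).

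The subunits of the phagocyte enzyme varied together over the 14 libraries once the mean of each tissue was removed, as described by Pearson's r on log2(FPKM + 0.1). The r was 0.83 for Cyba and Ncf1, 0.81 for Cybb and Cyba, 0.76 for Cybb and Ncf4, and 0.75 for Cybb and Ncf1. It was 0.67 both for Ncf1 and Ncf4 and for Cyba and Ncf4. Many other genes were as close: by r with Ncf1, Cyba ranked 30 and Ncf4 ranked 570 among 13652 genes. Rac2 was less close, with r from 0.27 with Ncf4 to 0.56 with Cyba, and Nox4 stood apart with r from 0.04 to 0.28. These points share mice and libraries, and the treatment groups were not removed.

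The 5 genes most alike in pattern were listed for each subunit past the filter, among 13652 genes, or 14150 genes for Duox2. For Cybb they were H2-DMb1 (r = 0.96), Lyz2, Csf1r, Fcgr3 and Lrrn4cl, 2 of which, Lyz2 and Csf1r, are in the macrophage list above. Ncf4 was most like Sirpa (r = 0.88), Cryl1, Clec12a, Clec4a3 and Lyz2, and Ncf1 most like Cmah (r = 0.93), Cfp, Psmb10, Slc11a1 and Ctsc. For Cyba the genes were Themis2 (r = 0.92), Tnfrsf13b, Fermt3, Icam1 and Arhgdib. Rac2 had Zc3h12a (r = 0.87), Ift46, Hdac5, Sik1 and Rps6ka1. Nox4 had lower values, led by 4921524J17Rik (r = 0.80) and followed by Klf10, Ell, Zfp984 and Rftn1. Duox2, compared over the 7 uteruses only, was most like Qprt (r = 0.98), Smpdl3b, B3gnt2, Mdm1 and Helb.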

How the data were processed

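Total RNA of 14 samples had been depleted of ribosomal RNA and made into stranded libraries. The authors trimmed reads with Skewer 0.2.2, aligned them to mm10 with STAR 2.5, and computed FPKM per gene with Cufflinks 2.2.1, as their methods and the submitters' processing notes state. The deposited FPKM are estimates, so whole fragments and depth could not be recovered, the Cuffdiff test of the study, which needs reads, was not run, and precision is limited by the 3 and 4 mice per group. Fragments were assigned by strand, as the methods state for the stranded kit.

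Identifiers were matched to symbols, positions and biotypes with GENCODE mouse M21. FPKM were transformed to log2(FPKM + 0.1), genes with a mean under 0.5 FPKM in the tissue were left out (for contrasts over both tissues, genes under it in both), and limma 3.58.1 (lmFit, eBayes with trend, R 4.3.3) was fitted to all remaining genes, first checked on simulated data. OT minus OC used the 7 libraries of a tissue, at a fold change of 2 and an unadjusted p of 0.05 after the cutoffs of the study; the contrasts over both tissues used 14 libraries. Fold changes on this scale understate those of low genes. Confidence intervals are 95%. Samples were grouped by their labels, which name separate mice, and p-values measure the spread between these samples. The labels give the ovary and uterus of a mouse 1 name, and deviations from group means correlated at 0.0904 to 0.265 for same-named samples (means 0.114 in OC and 0.188 in OT, against -0.0557 and -0.0612 for different names), so a fit with the mouse as a block was an alternative.

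The named genes were the 9 subunits, 14 other oxidase genes, and the 5 genes closest in pattern to each subunit past the filter. The subunits, gene lists and marker lists were chosen with earlier results of these data known, and 1 further listed gene is not reported here. Alternatives were pseudocounts of 1 and 0.01 FPKM, no filter, a filter of 1 FPKM, scaling to the median ratio, robust eBayes, the replicate block, all 14 libraries in 1 fit, and each mouse left out in turn.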

Additional observations from a re-analysis of the deposited data

Results flagged for a closer look

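Within groups of 4, a sample was singled out where its gap to the nearest other sample, as a share of the range of the group, exceeded Dixon's critical value at 95%. This held for 3 of the 35 gene and group pairs checked, and chance gives about 1 in 20. Cybb was 8.49 FPKM in the OT2 ovary, against 5.37 to 5.58 FPKM in the other OT ovaries. Nox4 was 1.67 FPKM in the OT2 uterus, against 1.43 to 1.47 FPKM in the other OT uteruses. Sh3pxd2b was 20.2 FPKM in the OT1 uterus, the library with the highest adipocyte sum (12308 FPKM), against 26.5 to 26.8 FPKM in the other OT uteruses. The OT minus OC fold change of Duoxa1 differed between the organs by 2.28 on the log2 scale in limma, larger in the uterus and past the fold and unadjusted p cutoffs, at an adjusted p of 0.846, but the gene passed the filter only through the OT uteruses, where it was high. The cause of none of these was tested.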

How the results depend on the processing

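Of the single-gene values chosen for a recount under the alternatives, 526 kept their direction and their side of the cutoffs. A further 10 lost a call and 7 changed sign, none of the sign changes in a called value. The recount did not cover every value given above, and sign changes of Cybb and Cyba outside it are given below. With a pseudocount of 1 FPKM, the genes called numbered 18 in the ovary (65 as reported), 259 in the uterus (410), 2042 between the organs (3075) and 135 for the difference between organs in OT minus OC (296), and the subunits called numbered 0 in the uterus and 1 between the organs. A larger pseudocount shrinks the fold changes of low genes by construction. Without the filter 159 genes were called in the ovary, and the subunits called numbered 2 in the uterus and 1 for the difference between organs, which added Duox1, whose fold against OC uteruses listed at 0 is set by the pseudocount and is no result. With a filter of 1 FPKM 42 genes were called in the ovary, and Duox2 was no longer tested, which left 1 subunit between the organs. OC and OT share replicate numbers. In the ovary the deviations of same-numbered samples correlated at -0.0163 to 0.338 (mean 0.128, against -0.0432 for different numbers). In the uterus they correlated at 0.00319 to 0.078 (mean 0.0419, against -0.0124). With 3 same-numbered pairs per tissue, whether the numbers mark a pairing cannot be settled. The replicate block, which leaves out OT4, gave 103 genes called in the ovary and 666 in the uterus, with Ncf1 still called. The mouse as a block changed no call of a subunit, though Cybb crossed the adjusted p cutoff between the organs. In 1 fit of all 14 libraries 47 genes of the uterus had an adjusted p under 0.05 in limma.

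Leaving out each mouse in turn, the genes called ranged from 51 to 137 in the ovary, with the most without OT3, and the subunits called in the uterus from 0 to 1. Fold changes near 0 changed sign: Nox4 ranged from -0.12 to 0.018 in the ovary and -0.14 to 0.10 in the uterus, and Rac2 from -0.39 to 0.30 in the difference between organs, where it was 0.00266 with a pseudocount of 1 FPKM. In the same difference between organs, Cybb ranged from -0.06 to 0.29 and Cyba from -0.07 to 0.10. The cause was not tested. With 3 and 4 mice and no depth given, low subunits such as Nox1, Duox1 and Duox2 are the least secure.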
